A study of Mus musculus with 6 samples.

Results

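GM-BMM are the macrophages of a GM-CSF bone marrow culture, and the genes described here are those whose level set them apart from GM-BMDC and M-BMM at once. A gene was taken where the mean of GM-BMM differed from the average of the GM-BMDC and M-BMM means past an adjusted p of 0.05 and where both GM-BMM arrays lay above, or both below, the other 4 arrays. Of 19938 genes tested, 902 met this rule, 605 higher and 297 lower in GM-BMM. The series holds 6 Affymetrix arrays, 1 for each sample, from sorted bone marrow cells of C57BL/6J mice aged 6 to 10 weeks and labelled male. Marrow was cultured for 7 days. GM-BMM and GM-BMDC grew with GM-CSF at 25 ng/ml and were split by sorting, GM-BMM as MHC class II low and F4/80 high cells and GM-BMDC, labelled dendritic cells, as MHC class II high and F4/80 low cells. M-BMM, also labelled macrophages, were sorted as CD11b and F4/80 positive cells from cultures with 20% L cell conditioned medium, which supplies M-CSF. Each population has 2 arrays that the labels call biological replicates, and the labels do not say how many animals or cultures stand behind them.

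GM-CSF and M-CSF are growth factors of myeloid cells that act through different receptors, the receptor of GM-CSF signalling through JAK2 and STAT5 and that of M-CSF, encoded by Csf1r, being a receptor tyrosine kinase. M-CSF circulates at steady state and maintains most tissue macrophages, whereas GM-CSF is released mainly in inflammation and is needed in the lung for alveolar macrophages. Marrow grown in GM-CSF yields a mixture of dendritic-like cells, which present antigen and migrate, and macrophage-like cells, which take up particles and secrete mediators. GM-BMM share a growth factor with GM-BMDC and a lineage label with M-BMM, and the comparison asks which genes set them apart from both.

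Values are RMA signals on a log2 scale. The difference of a gene is its GM-BMM mean minus the average of the GM-BMDC and M-BMM means, on the log2 scale, given with its standard error from limma, and n is 2 arrays in each population. A fold is this difference turned to a linear scale, and adjusted p-values are limma's with Benjamini-Hochberg adjustment over all genes tested. No detection call accompanies the values, and a population mean below 5.04, where the lowest 25% of all values lie, is termed low. A signal is not set against that of another gene, since probes differ in brightness, and fewer cells of a type in a sort and less RNA per cell cannot be told apart on these arrays. Genes were named by a rule on the size of the difference within the called genes and within each list, and any further gene named was chosen after its values were seen.

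The labels were checked against sex-linked genes and the genes of the gates. All 6 arrays are labelled male. Xist, a noncoding RNA expressed from the inactive X chromosome of females, had 11.58 and 4.93 in GM-BMM, 11.66 and 10.68 in GM-BMDC, and 4.53 and 4.80 in M-BMM, so 3 arrays were high and 3 were low. The Y-linked gene Eif2s3y had 3.66 and 9.10 in GM-BMM, 3.94 and 8.80 in GM-BMDC, and 9.32 and 9.17 in M-BMM, with GM-BMM replicate 1 and GM-BMDC replicate 1 lowest, as they were for Uty and Kdm5d. The libraries labelled GM-BMM replicate 1, GM-BMDC replicate 1 and GM-BMDC replicate 2 therefore go against the label male in at least 1 of these genes. Without both GM-CSF arrays numbered 1, 769 genes were higher and 438 lower in GM-BMM, of which 468 and 198 were among the 605 and 297. With the mean of Eif2s3y, Uty and Kdm5d as a covariate the counts were 622 and 290, of which 542 and 241 were among the 605 and 297. Of the 6 gate genes, H2-Aa, H2-Ab1 and H2-Eb1 of MHC class II lay between the other populations in GM-BMM (H2-Ab1 10.08 and 11.27 in GM-BMM, 13.09 and 13.17 in GM-BMDC, and 5.81 and 6.35 in M-BMM), Adgre1, which encodes F4/80, had 12.32 and 12.61 in GM-BMM, 9.39 and 10.91 in GM-BMDC, and 12.73 and 12.79 in M-BMM, and H2-Ea was low on every array. Itgam, which encodes CD11b, had 11.81 and 11.77 in GM-BMM, 9.67 and 10.75 in GM-BMDC, and 11.87 and 11.84 in M-BMM. The 2 GM-BMM arrays also differed from each other: their values were more than 1 log2 unit apart in 25 of the 605 higher and 5 of the 297 lower genes.

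Genes that stood above both populations were more numerous than those that stood below both, and their differences were larger. The 605 higher genes were 3.03% of the genes tested and had a median difference of 0.91 (1.87-fold), and 266 of them reached 2-fold and 68 reached 4-fold. The 297 lower genes were 1.49% of the genes tested, with a median difference of -0.72 (1.65-fold), and 83 reached 2-fold and 16 reached 4-fold. Over all genes tested the median difference was -0.02. By the limma threshold alone, 745 genes (3.74%) were higher and 472 (2.37%) lower, so 140 and 175 genes were set aside because an array overlapped. Non-overlap alone, with no test, held for 1886 genes above (9.46%) and 1956 below (9.81%). Leaving out 1 array changed the counts most for M-BMM: without M-BMM replicate 1 there were 272 higher and 102 lower genes, and without M-BMM replicate 2 228 and 74. Without either GM-BMM array the called genes were only partly those called with all arrays. The non-overlap rule then asked less, since a single GM-BMM array had to lie beyond the other 4. With GM-BMDC and M-BMM taken as 1 group of 4 arrays, whose spread then holds the difference between those populations, 65 genes were higher and 9 lower. Without limma's moderation of variances across genes 0 genes passed after adjustment, and 1136 higher and 969 lower genes had an unadjusted p under 0.05 and arrays that did not overlap.

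An average can pass on the strength of 1 population, so the 902 genes were also read in each pairwise comparison, which share the GM-BMM arrays. Over all genes tested, 5.74% were higher and 4.69% lower in GM-BMM than in GM-BMDC, and 3.62% were higher and 2.57% lower than in M-BMM. Past the limma threshold in both were 276 genes higher in GM-BMM (1.38% of genes tested) and 75 lower (0.376%), all among the 605 and 297. Of the other higher genes, 221 passed against GM-BMDC only, 97 against M-BMM only and 11 in neither comparison. Of the other lower genes, 138 passed against GM-BMDC only, 80 against M-BMM only and 4 in neither. The comparison of GM-BMDC with M-BMM ordered the other populations. It shares arrays and the variance estimate with the rule, so its counts among called genes are not an independent result. Of the 605 higher genes, GM-BMDC were above M-BMM in 84, M-BMM above GM-BMDC in 146, and 375 did not pass. Of the 297 lower genes, GM-BMDC were above M-BMM in 90, M-BMM above GM-BMDC in 45, and 162 did not pass. Over all genes tested, 7.76% were higher and 8.9% lower in GM-BMDC than in M-BMM.

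**Figure D1:**
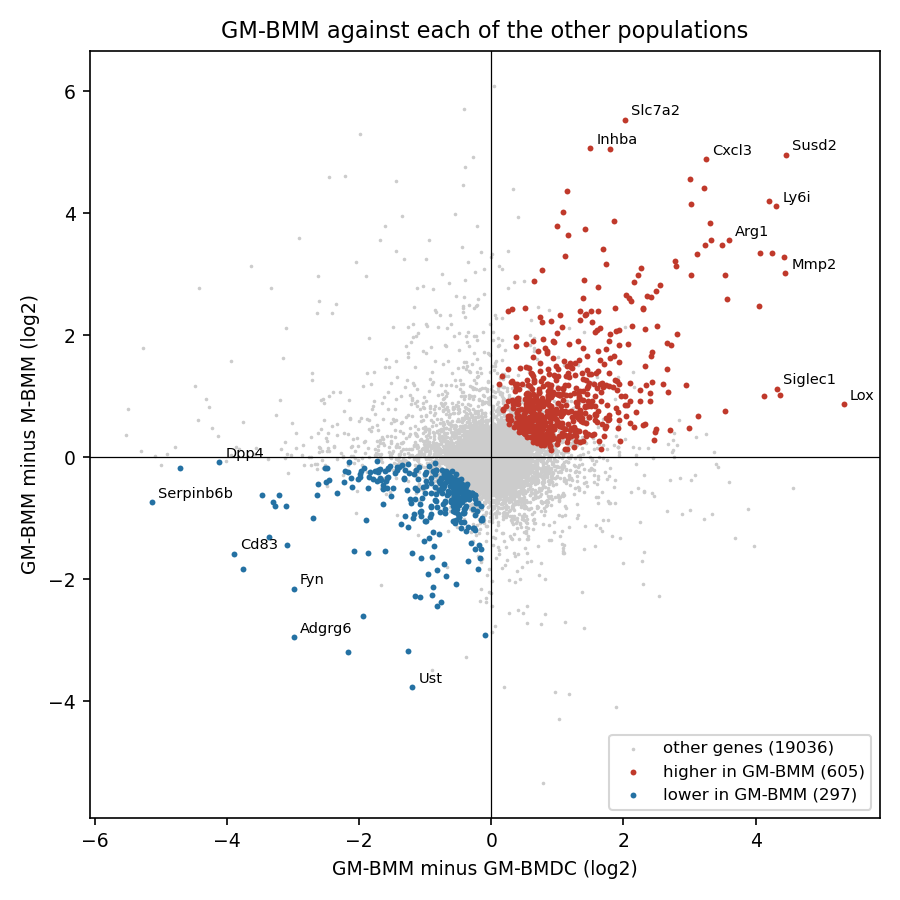
Each point is 1 of the 19938 genes tested, placed by the log2 difference GM-BMM minus GM-BMDC (horizontal) and GM-BMM minus M-BMM (vertical), with the 605 higher genes in red, the 297 lower genes in blue and the others in grey. Susd2, Ly6i and Arg1 lie far from both axes in the upper right, while Lox and Siglec1 lie far along the horizontal axis only.

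The gene with the largest difference was Susd2, which encodes a cell surface protein with a sushi domain. Susd2 had 10.55 and 11.33 in GM-BMM, 6.58 and 6.38 in GM-BMDC, and 5.95 and 6.01 in M-BMM, so the lower GM-BMM array exceeded the highest other array by 3.97 log2 units. Its difference was 4.71 ± 0.20 (26.2-fold, adjusted p = 6.94e-05), with 22-fold against GM-BMDC and 31.1-fold against M-BMM. Next came 2 members of the Ly6 family of small GPI-anchored surface proteins. Ly6i had 12.59 and 12.64 in GM-BMM, 8.25 and 8.35 in GM-BMDC, and 8.55 and 8.43 in M-BMM, a difference of 4.22 ± 0.10 (18.6-fold, adjusted p = 7.73e-06). Ly6a2 had 12.33 and 11.86 in GM-BMM, 7.76 and 8.03 in GM-BMDC, and 7.94 and 7.84 in M-BMM, a difference of 4.20 ± 0.15 (18.4-fold, adjusted p = 3.12e-05). In both, GM-BMDC and M-BMM lay close together and far below GM-BMM. Of the 10 Ly6 genes measured by a probe set of 1 gene, a group counted after the values were seen, these 2 passed, and the 8 others differed by -0.34 to 0.98; Ly6 genes are near copies of each other, so probes may be shared. The betaine and GABA transporter gene Slc6a12 had 11.12 and 11.33 in GM-BMM, 8.20 and 8.24 in GM-BMDC, and 6.70 and 6.63 in M-BMM, a difference of 3.78 ± 0.10 (adjusted p = 1.37e-05). Mirt2, a long noncoding RNA gene, had 9.27 and 8.87 in GM-BMM, 5.45 and 5.71 in GM-BMDC, and 5.81 and 5.38 in M-BMM, a difference of 3.48 ± 0.17 (adjusted p = 0.000112). No array of the other populations came near the GM-BMM arrays in these 5 genes.

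**Figure D2:**
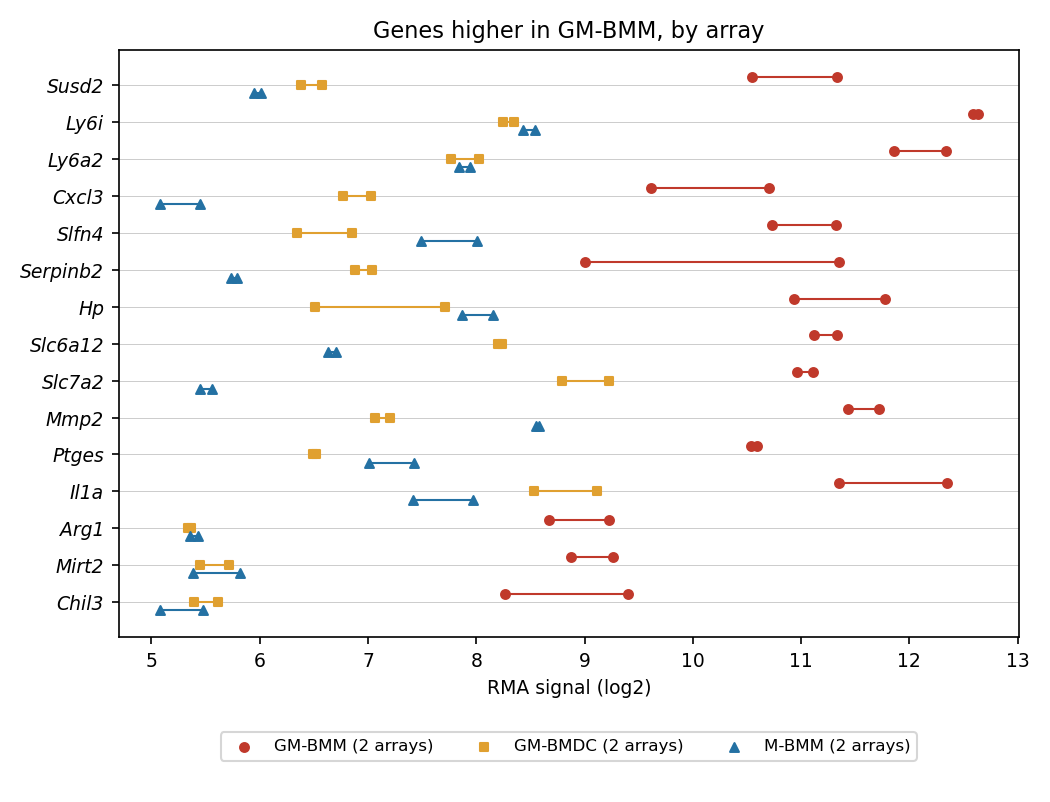
RMA signals (log2, horizontal axis) of 15 higher genes, the 12 with the largest differences and those among the 8 with the largest smaller pairwise difference, with GM-BMM as red circles, GM-BMDC as orange squares and M-BMM as blue triangles, each symbol 1 array and each line joining the 2 arrays of a population. In every gene both GM-BMM arrays lie right of the other 4, and Serpinb2 has the widest spread between GM-BMM arrays, 11.35 and 9.0.

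Among cytokine genes the largest difference was that of Il1a, of the interleukin 1 family, whose ligands are alarm signals that start inflammation in neighbouring cells. Of the 33 cytokine and growth factor genes on the list, 9 were higher in GM-BMM (27.3%) and 24 did not pass, with a median difference of 0.21 over the list. Beside this and every later list count, the shares over all genes tested were 3.03% higher and 1.49% lower. Il1a, which encodes interleukin 1 alpha, had 12.34 and 11.35 in GM-BMM, 9.12 and 8.53 in GM-BMDC, and 7.97 and 7.42 in M-BMM (difference 3.59 ± 0.30, adjusted p = 0.00100). Il1b, which encodes the secreted interleukin 1 beta, had 11.52 and 11.54 in GM-BMM, 9.06 and 9.01 in GM-BMDC, and 8.91 and 8.70 in M-BMM (difference 2.61 ± 0.10, adjusted p = 4.43e-05). In both genes the 2 GM-BMM arrays lay well above the other 4, and for Il1b they were nearly equal. Il1rn, which encodes the antagonist that blocks the interleukin 1 receptor, was higher too, at 11.50 and 10.71 in GM-BMM, 9.66 and 9.69 in GM-BMDC, and 8.82 and 8.71 in M-BMM (difference 1.89 ± 0.20, adjusted p = 0.00234), and here GM-BMDC also exceeded M-BMM by 0.92 ± 0.23 (adjusted p = 0.0350). Counted as a family after the values were seen, 7 of 17 measured interleukin 1 family ligands and receptors were higher, with a median of 0.58. They include Il1f9, the interleukin 36 gamma gene, at 10.56 and 9.05 in GM-BMM, 6.12 and 6.42 in GM-BMDC, and 6.94 and 6.68 in M-BMM (difference 3.26 ± 0.37), and Il1rl2, which encodes the receptor of interleukin 36 (difference 2.55 ± 0.24). Il1f6, an interleukin 36 alpha gene, differed by 1.32 ± 0.25 and Il1rap, the shared accessory receptor, by 0.58 ± 0.12. Il18r1 and Il18rap, which encode the interleukin 18 receptor, had differences of -1.42 and -1.18 with arrays that overlapped. The limma call was lost with 1 array left out, the highest adjusted p in brackets, for Il1f6 (0.13) without GM-BMDC replicate 2 or either M-BMM array and Il1rap (0.16) without either GM-BMM array, GM-BMDC replicate 1 or either M-BMM array. Over 1.5-fold apart without 1 array were the differences of Il1f9 2.51 without GM-BMM replicate 1 and 4.02 without GM-BMM replicate 2.

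Outside that family, Inhba and Il12a had the largest cytokine differences. Inhba, which encodes the activin A subunit, had 11.47 and 10.35 in GM-BMM, 9.95 and 8.86 in GM-BMDC, and 5.98 and 5.70 in M-BMM (difference 3.28 ± 0.37, adjusted p = 0.00308); GM-BMDC stood 3.56 ± 0.43 (adjusted p = 0.00155) above M-BMM and the pairwise test against GM-BMDC did not pass (difference 1.5 ± 0.43, adjusted p = 0.0716). Il12a, which encodes the p35 subunit of interleukin 12, had 8.81 and 8.64 in GM-BMM, 5.96 and 5.95 in GM-BMDC, and 5.58 and 5.45 in M-BMM (difference 2.99 ± 0.10, adjusted p = 2.78e-05), far above both others. Its partner Il12b was not higher: the array values were 5.95 and 6.80 in GM-BMM, 9.09 and 8.73 in GM-BMDC, and 5.36 and 5.62 in M-BMM, and GM-BMDC were highest. The other cytokine genes that passed were Il6, Vegfa, Hgf and Igf1, named after their values were seen. Il6 had 9.14 and 8.42 in GM-BMM, 8.16 and 7.41 in GM-BMDC, and 5.15 and 4.82 in M-BMM (difference 2.40 ± 0.26), close to GM-BMDC and far above M-BMM. Vegfa, Hgf and Igf1 encode growth factors for vessels, epithelia and many tissues, and their differences were 1.37 ± 0.12, 1.15 ± 0.16 and 1.07 ± 0.22. Tnf, at 10.49 and 11.16 in GM-BMM, 8.76 and 9.03 in GM-BMDC, and 10.70 and 10.77 in M-BMM, overlapped with M-BMM, and Il10, at 5.34 and 7.77 in GM-BMM, 4.42 and 4.10 in GM-BMDC, and 8.58 and 8.68 in M-BMM, was far apart between the GM-BMM arrays. Calls that limma no longer made without 1 array, with the highest adjusted p in brackets, were those of Hgf (0.054) without either M-BMM array and Igf1 (0.16) without either GM-BMM array or either M-BMM array.

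CXC chemokine genes were higher in most cases. These small secreted proteins attract neutrophils where they carry the ELR motif, and 8 of the 13 measured were higher in GM-BMM, with a list median of 1.48. Cxcl3, a neutrophil attractant, had 10.70 and 9.61 in GM-BMM, 7.03 and 6.77 in GM-BMDC, and 5.45 and 5.08 in M-BMM (difference 4.07 ± 0.28, 16.8-fold, adjusted p = 0.000513). Cxcl2, its close relative, had 11.64 and 11.22 in GM-BMM, 8.63 and 9.21 in GM-BMDC, and 9.40 and 9.15 in M-BMM (difference 2.33 ± 0.19, adjusted p = 0.000944). Cxcl3 was graded, with GM-BMDC 1.64 ± 0.32 (adjusted p = 0.0134) above M-BMM, whereas GM-BMDC and M-BMM overlapped in Cxcl2. Ppbp and Pf4, which encode chemokines best known from platelets, had 12.28 and 10.87 in GM-BMM, 9.88 and 10.43 in GM-BMDC, and 8.25 and 7.40 in M-BMM for Ppbp (difference 2.59 ± 0.40) and 12.16 and 11.01 in GM-BMM, 8.78 and 9.09 in GM-BMDC, and 9.88 and 9.54 in M-BMM for Pf4 (difference 2.26 ± 0.29, adjusted p = 0.00561). Ppbp was at a similar level in 1 GM-BMM and 1 GM-BMDC array, with a gap of 0.44 between them. The remaining higher genes, Cxcl5, Cxcl13, Cxcl10 and Cxcl1, differed by 1.85 ± 0.27, 1.62 ± 0.33, 1.48 ± 0.18 and 0.81 ± 0.10, and were named after their values were seen. Cxcl9, Cxcl11, Cxcl12, Cxcl14 and Cxcl16 did not pass. Among 13 CC chemokine genes 1, Ccl2, the main monocyte attractant, was higher, at 12.11 and 11.48 in GM-BMM, 9.35 and 9.74 in GM-BMDC, and 10.85 and 10.91 in M-BMM (difference 1.59 ± 0.19, adjusted p = 0.00406). Of the CXC chemokine genes, the number higher was 5 without M-BMM replicate 2. CC chemokine genes higher in GM-BMM numbered 2 without GM-BMM replicate 1 and 3 without GM-BMM replicate 2. Without 1 array limma no longer called, with the highest adjusted p in brackets, Ppbp (0.069) without M-BMM replicate 2 and Cxcl5 (0.064) without either M-BMM array. The same held for Cxcl13 (0.15) without either GM-BMDC array or either M-BMM array. Moved by over 1.5-fold were the differences of Cxcl13 2.33 without GM-BMM replicate 1 and 0.92 without GM-BMM replicate 2, Ppbp 1.88 without GM-BMM replicate 1 and 3.29 without GM-BMM replicate 2.

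The promoters of Cxcl2 and Cxcl3 are shown because both genes were higher and both carry the same palindromic match to the NF-kappaB consensus, the binding site of the factor that drives many inflammatory genes. The sequences are from RefSeq (GRCm38.p6), cover the 250 bases before the start site, run 5′ to 3′ on the gene's strand, and capitals mark the motif matches. The search used GGGA and TTCC parted by any 2 bases for NF-kappaB, TTGC and AA parted by any 2 bases for C/EBP, ACGTG for the core of the hypoxia response element, GAAA and GAAA parted by any 2 bases for the interferon response element and TATAAA for the TATA box, on both strands, with overlapping matches joined.
Cxcl2, chr5:90903649-90903898, plus strand: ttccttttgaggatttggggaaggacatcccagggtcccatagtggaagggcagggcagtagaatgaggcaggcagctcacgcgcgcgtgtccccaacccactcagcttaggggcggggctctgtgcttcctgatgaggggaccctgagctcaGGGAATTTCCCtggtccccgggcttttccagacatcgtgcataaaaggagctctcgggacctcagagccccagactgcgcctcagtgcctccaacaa
Cxcl3, chr5:90785851-90786100, plus strand: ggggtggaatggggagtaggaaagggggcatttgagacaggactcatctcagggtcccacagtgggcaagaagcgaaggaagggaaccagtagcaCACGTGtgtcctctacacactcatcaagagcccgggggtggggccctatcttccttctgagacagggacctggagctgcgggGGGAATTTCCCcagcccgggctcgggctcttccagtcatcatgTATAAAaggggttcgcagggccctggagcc
In Cxcl2 the NF-kappaB match begins 97 bases before the start site and in Cxcl3 73 bases before it, and both run as GGGAATTTCCC, which matches on each strand. Cxcl3 also holds ACGTG on each strand around 155 bases before the start and a TATA box at 30 bases. A match is a description of letters and not of binding.

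Il1b and Ptgs2 are shown beside them as inflammatory genes without that NF-kappaB match in the window. In Il1b the capitals are a TATA box 31 bases before the start, and in Ptgs2 a C/EBP match that begins 69 bases before it. C/EBP factors, which Cebpb below encodes, act in myeloid cells.
Il1b, chr2:129371140-129371389, minus strand: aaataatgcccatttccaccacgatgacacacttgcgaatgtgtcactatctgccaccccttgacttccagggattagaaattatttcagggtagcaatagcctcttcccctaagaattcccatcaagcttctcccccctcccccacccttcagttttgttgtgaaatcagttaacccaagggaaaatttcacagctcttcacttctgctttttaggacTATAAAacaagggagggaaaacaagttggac
Ptgs2, chr1:150099781-150100030, plus strand: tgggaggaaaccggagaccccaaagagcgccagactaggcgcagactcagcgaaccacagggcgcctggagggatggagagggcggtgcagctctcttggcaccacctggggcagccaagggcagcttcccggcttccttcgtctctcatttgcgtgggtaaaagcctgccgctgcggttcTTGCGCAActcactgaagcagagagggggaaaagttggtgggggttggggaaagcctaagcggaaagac
Promoters were found for 487 of the 605 higher and 222 of the 297 lower genes and for 15614 of the genes tested, each read over 250 bases before and 50 after the start. The C/EBP letters stood in 14.8% of the higher genes' promoters, 9.91% of the lower genes' and 9.68% of all. For NF-kappaB the shares were 2.05%, 2.25% and 1.40%, for ACGTG 25.7%, 18.9% and 21.7%, for the interferon response element 5.54%, 3.60% and 3.32%, and for the TATA box 11.1%, 10.4% and 12.1%. No test was made of these shares.

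Both arginase genes and an arginine carrier gene were higher in GM-BMM. Arginase cleaves arginine to ornithine and urea, competes with nitric oxide synthase, and is a classic mark of alternatively activated macrophages. Arg1, the cytosolic arginase, had 9.23 and 8.67 in GM-BMM, 5.37 and 5.34 in GM-BMDC, and 5.35 and 5.43 in M-BMM (difference 3.58 ± 0.16, 11.9-fold, adjusted p = 6.94e-05), with all 4 other arrays within a narrow band. Arg2, the mitochondrial arginase, had 9.96 and 9.36 in GM-BMM, 7.47 and 7.77 in GM-BMDC, and 7.20 and 6.80 in M-BMM (difference 2.35 ± 0.20, adjusted p = 0.000991). Slc7a2, which encodes a cationic amino acid transporter that brings in arginine, had 11.11 and 10.96 in GM-BMM, 9.23 and 8.79 in GM-BMDC, and 5.56 and 5.44 in M-BMM (difference 3.78 ± 0.14, adjusted p = 3.12e-05), graded with GM-BMDC 3.51 ± 0.16 (adjusted p = 2.78e-05) above M-BMM. Chil3, a chitinase-like secreted protein, had 9.40 and 8.27 in GM-BMM, 5.40 and 5.61 in GM-BMDC, and 5.48 and 5.08 in M-BMM (difference 3.44 ± 0.29, adjusted p = 0.00100). Both GM-BMM arrays were thus far above the rest for each arginase and for Chil3. Of the 19 measured genes on the list of alternative activation and arginine use, 6 were higher and 1 was lower, with a list median of 0.02. The other higher members were Tgm2, a transglutaminase, and Chil1 (differences 1.57 ± 0.12 and 0.51 ± 0.11), and the lower one was Il4ra, which encodes the interleukin 4 receptor (difference -0.56 ± 0.12); these 3 were named after their values were seen. Other genes used as marks of alternative activation did not follow: Mrc1 had 10.54 and 8.68 in GM-BMM, 9.08 and 10.02 in GM-BMDC, and 9.34 and 9.21 in M-BMM, and Retnla had 4.47 and 4.14 in GM-BMM, 7.11 and 6.18 in GM-BMDC, and 4.18 and 4.49 in M-BMM. Nos2, the inducible nitric oxide synthase, had 9.07 and 8.12 in GM-BMM, 9.44 and 8.24 in GM-BMDC, and 5.69 and 5.43 in M-BMM, about level with GM-BMDC. Alternative activation and arginine genes lower in GM-BMM numbered 0 without GM-BMM replicate 2, GM-BMDC replicate 1 or either M-BMM array and 2 without GM-BMM replicate 1 or GM-BMDC replicate 2. Leaving out 1 array ended the limma call, with the highest adjusted p so reached in brackets, for Chil1 (0.22) and Il4ra (0.18) without either GM-BMM array, GM-BMDC replicate 1 or either M-BMM array.

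The genes of the inducible steps toward prostaglandin E2 were higher. Ptgs2, which encodes cyclooxygenase 2, had 10.36 and 10.09 in GM-BMM, 8.27 and 7.58 in GM-BMDC, and 7.93 and 7.64 in M-BMM (difference 2.37 ± 0.20, adjusted p = 0.00103). Ptges, which encodes the inducible prostaglandin E synthase that acts after it, had 10.60 and 10.54 in GM-BMM, 6.52 and 6.49 in GM-BMDC, and 7.42 and 7.01 in M-BMM (difference 3.71 ± 0.13, 13.1-fold, adjusted p = 2.96e-05). The GM-BMM arrays agreed closely in both genes and lay well above the rest. Pla2g4a, the phospholipase that frees arachidonic acid, differed by 0.80 ± 0.18 (adjusted p = 0.0439), and Ptgir, the prostacyclin receptor gene, by 1.18 ± 0.10 (adjusted p = 0.00118) with its GM-BMDC arrays close below. In all, 5 of 26 measured genes of prostaglandin and leukotriene metabolism were higher, with a list median of 0.09, and 2 passed in both pairwise comparisons. The synthases Ptges2 and Ptges3 had differences of 0.22 and -0.07 and did not pass, and neither did the leukotriene genes Alox5 (0.98) and Lta4h (0.05). Pla2g7, which encodes a phospholipase that degrades platelet-activating factor and was named after its values were seen, differed by 0.65 ± 0.14. Of the prostaglandin and leukotriene genes, the number higher was 3 without GM-BMM replicate 1 or either M-BMM array and 9 without GM-BMDC replicate 2. The limma call was lost with 1 array left out, the highest adjusted p in brackets, for Pla2g4a (0.19) without either GM-BMM array or either M-BMM array and Pla2g7 (0.19) without either GM-BMM array, GM-BMDC replicate 1 or either M-BMM array.

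Of the genes that sense bacterial products, some were higher in GM-BMM. Cd14, the coreceptor for bacterial lipopolysaccharide, had 11.45 and 11.57 in GM-BMM, 9.35 and 9.95 in GM-BMDC, and 9.83 and 9.87 in M-BMM (difference 1.76 ± 0.17, adjusted p = 0.00146), with both GM-BMM arrays above the other 4 and M-BMM within the range of GM-BMDC. Tlr2, a receptor for bacterial lipoproteins, differed by 1.15 ± 0.22 (adjusted p = 0.0251) and Irak3, an inhibitor of Toll-like receptor signalling, by 1.37 ± 0.13 (adjusted p = 0.00150). On the list of Toll-like receptors and their signalling, 3 of 22 were higher and 1 was lower, namely Ly86 (MD-1), a partner of the Toll-like protein RP105, with -0.75 ± 0.12. In both pairwise comparisons 1 gene of this list was higher and 0 were lower. Inflammasomes are protein complexes that activate interleukin 1 beta, and of their genes 6 of 15 were higher in GM-BMM, with a list median of 0.61. Besides Il1b these were Nlrp3, Nlrc4, Naip2, Naip5 and Casp4. Nlrp3, the sensor of membrane damage, had 9.36 and 9.56 in GM-BMM, 8.19 and 8.77 in GM-BMDC, and 7.98 and 7.94 in M-BMM (difference 1.24 ± 0.17, adjusted p = 0.00638). Naip2, which binds bacterial secretion proteins and signals through Nlrc4, had 10.16 and 10.22 in GM-BMM, 9.14 and 9.47 in GM-BMDC, and 9.13 and 8.99 in M-BMM (difference 1.01 ± 0.12, adjusted p = 0.00409), and Nlrc4 itself differed by 1.07 ± 0.18 (adjusted p = 0.0172). Naip genes are near copies, and their probes may be shared. Casp1 and the adaptor gene Pycard had differences of 0.45 and 0.06 and did not pass. The Toll-like receptor count of 3 higher was 5 without GM-BMDC replicate 2. Of the inflammasome genes, the number higher was 2 without M-BMM replicate 2. Toll-like receptor genes lower in GM-BMM numbered 0 without GM-BMM replicate 1 or either M-BMM array and 2 without GM-BMM replicate 2. Calls that limma no longer made without 1 array, with the highest adjusted p in brackets, were those of Nlrp3 (0.052) without M-BMM replicate 2 and Ly86 (0.081) and Tlr2 (0.13) without GM-BMM replicate 1 or either M-BMM array. The same held for Nlrc4 (0.094) without either GM-BMM array or either M-BMM array.

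Among lectins and paired receptors of the myeloid surface, activating and inhibitory members were both found. Clec4e (Mincle), a receptor for mycobacterial glycolipid, had 11.88 and 12.10 in GM-BMM, 9.34 and 9.81 in GM-BMDC, and 10.45 and 10.19 in M-BMM (difference 2.04 ± 0.16, adjusted p = 0.000788). Its neighbour Clec4d differed by 1.35 ± 0.19 and Clec5a, which signals through DAP12, by 1.88 ± 0.35. Clec9a, a dendritic cell receptor for exposed actin, had 7.77 and 7.04 in GM-BMM, 6.82 and 6.97 in GM-BMDC, and 5.06 and 4.87 in M-BMM (difference 1.47 ± 0.20), a small gap over GM-BMDC and a large one over M-BMM. In all 5 of 28 C-type lectin genes were higher and 1 was lower, and only 1, a higher one, passed in both pairwise comparisons. Named after their values were seen, Cd302 was the fifth higher one (1.09 ± 0.16) and Clec2i the lower one (-0.92 ± 0.16). Of 23 genes of Siglec, CD300 and related receptors, 6 were higher, with a list median of 0.68, and 2 passed in both pairwise comparisons. Siglec1 (CD169), which binds sialic acid, had 10.24 and 11.54 in GM-BMM, 6.33 and 6.81 in GM-BMDC, and 9.80 and 9.72 in M-BMM (difference 2.72 ± 0.33, adjusted p = 0.00409), far above GM-BMDC and just above M-BMM. Trem1, which amplifies inflammation, had 8.61 and 8.47 in GM-BMM, 6.97 and 7.87 in GM-BMDC, and 5.16 and 5.34 in M-BMM (difference 2.21 ± 0.23, adjusted p = 0.00209). Cd300lf, an inhibitory receptor, differed by 1.87 ± 0.14 and Pilrb1, an activating paired receptor, by 1.52 ± 0.30. Pilrb2, its neighbour, and Trem2 completed the higher genes of this list. Among 11 Fc receptor genes, Fcgr1, which binds IgG with high affinity, and Fcgr2b, the inhibitory one, were higher (differences 1.19 ± 0.25 and 0.83 ± 0.13). Only 1 of these passed in both pairwise comparisons. Of the Siglec and CD300 genes, the number higher was 3 without GM-BMM replicate 2 or either M-BMM array. Lectin genes higher in GM-BMM numbered 1 without M-BMM replicate 2. The Fc receptor count of 2 higher was 0 without either M-BMM array and 1 without either GM-BMM array or GM-BMDC replicate 1. Of the lectin genes, the number lower was 3 without GM-BMM replicate 1 or GM-BMDC replicate 1, 2 without GM-BMDC replicate 2 and 0 without either M-BMM array. Without 1 array limma no longer called, with the highest adjusted p in brackets, Clec4d (0.055) and Clec9a (0.052) without M-BMM replicate 2 and Cd302 (0.065) without GM-BMM replicate 2 or M-BMM replicate 2. It was also lost for Fcgr2b (0.070) without GM-BMM replicate 1 or either M-BMM array and Clec2i (0.091) without GM-BMM replicate 2 or either M-BMM array. The same held for Clec5a (0.13) and Pilrb1 (0.14) without either GM-BMM array or either M-BMM array and Fcgr1 (0.16) without GM-BMM replicate 2, GM-BMDC replicate 1 or either M-BMM array. Single arrays moved some differences by over 1.5-fold: Siglec1 3.38 without GM-BMM replicate 1 and 2.07 without GM-BMM replicate 2.

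Receptors for chemoattractants and cytokines included higher and lower genes. Of 22 chemoattractant receptor genes, 6 were higher, and 3 passed in both pairwise comparisons. P2ry14, the receptor of UDP-glucose, had 10.85 and 10.31 in GM-BMM, 9.70 and 9.93 in GM-BMDC, and 7.48 and 7.53 in M-BMM (difference 1.92 ± 0.16, adjusted p = 0.000983), and P2ry13, an ADP receptor, differed by 2.02 ± 0.30 (adjusted p = 0.00939). Cmklr1, the chemerin receptor, and Ccrl2, which holds chemerin at the surface, differed by 1.56 ± 0.23 and 1.45 ± 0.22. Hcar2, a receptor for niacin and ketone bodies, and Ltb4r1, a leukotriene B4 receptor, were the others, named after their values were seen (1.19 ± 0.17 and 0.58 ± 0.12). Of 33 cytokine and growth factor receptor genes, 5 were higher and 2 lower. In both pairwise comparisons only 1 gene of this list was higher and 0 were lower. Tnfrsf1b (TNF receptor 2) had a difference of 1.17 ± 0.12, Kdr (VEGF receptor 2) of 1.28 ± 0.19 and the decoy receptor gene Tnfrsf26 of 1.42 ± 0.26. Flt3, the receptor of dendritic cell precursors, was lower (-1.15 ± 0.17). The others were Il1rap and Acvr1b, an activin receptor gene (0.55 ± 0.12), both higher, and Il4ra, lower. Feedback inhibitors of cytokine signalling were represented by Socs1, at 9.59 and 8.91 in GM-BMM, 8.21 and 7.69 in GM-BMDC, and 7.30 and 7.41 in M-BMM (difference 1.60 ± 0.22, adjusted p = 0.00652), and by Socs3 (difference 1.37 ± 0.12, adjusted p = 0.00131). These were the 2 higher genes of 14 on that list. Of the chemoattractant receptor genes, the number higher was 1 without M-BMM replicate 2 and 2 without M-BMM replicate 1. Cytokine receptor genes higher in GM-BMM numbered 1 without M-BMM replicate 2, 2 without GM-BMDC replicate 1 or M-BMM replicate 1 and 3 without GM-BMM replicate 1. The cytokine receptor count of 2 lower was 0 without M-BMM replicate 2 and 1 without GM-BMM replicate 2, GM-BMDC replicate 1 or M-BMM replicate 1. Leaving out 1 array ended the limma call, with the highest adjusted p so reached in brackets, for Ccrl2 (0.071) and Kdr (0.066) without M-BMM replicate 2 and Flt3 (0.062) and Hcar2 (0.055) without either M-BMM array. Lost likewise was the call for Tnfrsf26 (0.11) without GM-BMDC replicate 1 or either M-BMM array and P2ry13 (0.068) without GM-BMM replicate 1 or either M-BMM array. It was also lost for Cmklr1 (0.067) without GM-BMM replicate 2 or either M-BMM array and Acvr1b (0.20) and Ltb4r1 (0.18) without either GM-BMM array, GM-BMDC replicate 1 or either M-BMM array.

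Genes of the interferon response had mostly positive differences, and their levels differed between the GM-BMM arrays. Type I interferons are antiviral cytokines, and of 30 measured response genes 27 had a positive difference, 7 were higher past the rule and the list median was 0.98. Only 1 gene of this list was higher in both pairwise comparisons. Without both GM-CSF arrays numbered 1 the number higher was 26. Type I interferon response genes higher in GM-BMM numbered 2 without M-BMM replicate 2, 4 without GM-BMM replicate 2 or M-BMM replicate 1 and 23 without GM-BMM replicate 1. The mean level of the list was 9.71 and 10.37 in the GM-BMM arrays, 8.46 and 8.48 in GM-BMDC and 9.65 and 9.79 in M-BMM. The lower GM-BMM array thus lay between the M-BMM arrays, and GM-BMDC lay below both. Oas3, an antiviral nucleotide synthetase, had 10.09 and 10.81 in GM-BMM, 8.0 and 8.08 in GM-BMDC, and 9.47 and 9.33 in M-BMM (difference 1.73 ± 0.19, adjusted p = 0.00260). Isg20, an RNA exonuclease, differed by 1.44 ± 0.24 and Oasl2 by 1.19 ± 0.14, and Oasl1, Usp18, Ifitm3 and Ifi205 also passed. Schlafen genes, which interferon and activation induce, were higher in 5 of 8, and 2 passed in both pairwise comparisons. Slfn4 had 10.73 and 11.32 in GM-BMM, 6.86 and 6.34 in GM-BMDC, and 8.01 and 7.49 in M-BMM (difference 3.85 ± 0.23, 14.5-fold, adjusted p = 0.000292) and Slfn1 had 10.79 and 11.16 in GM-BMM, 7.86 and 8.04 in GM-BMDC, and 8.18 and 7.78 in M-BMM (difference 3.01 ± 0.16, adjusted p = 0.000155). Both were far above either population, whereas Slfn3, Slfn9 and Slfn10-ps differed by 0.84 ± 0.18, 1.09 ± 0.24 and 1.14 ± 0.16; Schlafen genes are near copies, so probes may be shared. Counted after the values were seen, 7 of 9 genes of the interferon-activable protein 200 family, which bind nucleic acids, were higher. Of these, only Ifi209 and Ifi214 passed in both pairwise comparisons. Ifi205 had 10.68 and 10.61 in GM-BMM, 10.51 and 9.48 in GM-BMDC, and 8.24 and 7.27 in M-BMM (difference 1.77 ± 0.33, adjusted p = 0.0237) and Ifi208 7.97 and 8.57 in GM-BMM, 4.94 and 4.52 in GM-BMDC, and 7.62 and 7.39 in M-BMM (difference 2.15 ± 0.19). The 8 guanylate-binding and immunity-related GTPase genes, which interferon gamma induces most, gave 0 calls by the rule, with 3 of them higher at an unadjusted limma p under 0.05. The Schlafen family count of 5 higher was 3 without GM-BMM replicate 2, GM-BMDC replicate 1 or either M-BMM array. Of the GTPase genes, the number higher was 1 without either GM-BMM array or GM-BMDC replicate 2. GTPase genes lower in GM-BMM numbered 1 without GM-BMM replicate 1. The interferon-activable protein count of 7 higher was 4 without GM-BMM replicate 2 or M-BMM replicate 2. The limma call was lost with 1 array left out, the highest adjusted p in brackets, for Isg20 (0.082) without either M-BMM array and Ifi205 (0.10) without either GM-BMM array or M-BMM replicate 2. No call was left for Slfn3 (0.18) and Slfn9 (0.18) without GM-BMM replicate 2, GM-BMDC replicate 1 or either M-BMM array.

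Some genes of secreted defence proteins were higher. Hp encodes haptoglobin, which binds free hemoglobin, and had 10.93 and 11.78 in GM-BMM, 6.51 and 7.71 in GM-BMDC, and 8.16 and 7.87 in M-BMM (difference 3.80 ± 0.35, 13.9-fold, adjusted p = 0.00141). Cfb encodes factor B of the alternative complement pathway and had 10.45 and 11.72 in GM-BMM, 7.13 and 6.95 in GM-BMDC, and 8.69 and 8.54 in M-BMM (difference 3.26 ± 0.30, adjusted p = 0.00145). C1s1 and C1ra encode proteases that start the classical pathway, and differed by 2.96 ± 0.18 and 1.76 ± 0.19 (adjusted p = 0.000292 and 0.00249). These were the 3 higher genes of 20 complement genes, and C1qa, C1qb and C1qc, which encode the recognition subunit, had differences of -0.66, -0.47 and -0.50 and did not pass. Lcn2, which withholds iron from bacteria, had 13.44 and 13.31 in GM-BMM, 11.26 and 10.62 in GM-BMDC, and 12.14 and 12.14 in M-BMM (difference 1.83 ± 0.17, adjusted p = 0.00149). Hmox1, which breaks down heme, and Slc48a1, which carries it out of lysosomes, differed by 1.19 ± 0.10 and 0.50 ± 0.11. With Hp and Lcn2 they made 4 of 19 iron and heme genes higher. Serpinb2, an inhibitor of urokinase, had 11.35 and 9.0 in GM-BMM, 7.04 and 6.88 in GM-BMDC, and 5.79 and 5.74 in M-BMM (difference 3.82 ± 0.54, adjusted p = 0.00786), with a wide gap between the GM-BMM arrays. Slpi, an inhibitor of neutrophil elastase, had 8.81 and 8.99 in GM-BMM, 6.21 and 6.15 in GM-BMDC, and 7.17 and 6.96 in M-BMM (difference 2.28 ± 0.11, adjusted p = 0.000108). Of 14 protease inhibitor genes 3 were higher, Serpinb8 among them (1.66 ± 0.32), and 1, Serpinb6b, was lower. Protease inhibitor genes higher in GM-BMM numbered 1 without either M-BMM array and 6 without GM-BMM replicate 2. The protease inhibitor count of 1 lower was 2 without either GM-BMM array. Calls that limma no longer made without 1 array, with the highest adjusted p in brackets, were those of Serpinb2 (0.061) without either M-BMM array and Serpinb8 (0.13) without GM-BMM replicate 1 or either M-BMM array. Lost likewise was the call for Slc48a1 (0.18) without either GM-BMM array, GM-BMDC replicate 1 or either M-BMM array. Over 1.5-fold apart without 1 array were the differences of Cfb 3.89 without GM-BMM replicate 1 and 2.63 without GM-BMM replicate 2, Serpinb2 2.64 without GM-BMM replicate 1 and 4.99 without GM-BMM replicate 2.

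Genes of the extracellular matrix and of its remodelling were higher in 8 of 31, with a list median of 0.51. Mmp2 encodes gelatinase A and had 11.44 and 11.72 in GM-BMM, 7.07 and 7.20 in GM-BMDC, and 8.55 and 8.58 in M-BMM (difference 3.73 ± 0.11, 13.3-fold, adjusted p = 2.19e-05). Lox encodes lysyl oxidase, which crosslinks collagen, and had 10.84 and 11.67 in GM-BMM, 5.79 and 6.05 in GM-BMDC, and 10.39 and 10.38 in M-BMM (difference 3.10 ± 0.22, adjusted p = 0.000518), with 40.3-fold against GM-BMDC and 1.83-fold against M-BMM. Lox was thus near the level of M-BMM, whereas Mmp2 stood clear of both. The others were Tgm2, Thbs1, Tgfbi and Ecm1, with Thbs1 (thrombospondin 1) at 1.02 ± 0.11 and Tgfbi at 2.0 ± 0.31, named after their values were seen. Mmp8 and Mmp9 encode a collagenase and a gelatinase stored in neutrophil granules. Mmp8 had 12.91 and 11.78 in GM-BMM, 9.93 and 11.04 in GM-BMDC, and 8.75 and 8.20 in M-BMM (difference 2.87 ± 0.39, adjusted p = 0.00683) and Mmp9 10.26 and 10.30 in GM-BMM, 6.31 and 6.02 in GM-BMDC, and 9.34 and 9.22 in M-BMM (difference 2.56 ± 0.11, adjusted p = 7.08e-05). Beside this, 1 of 11 fibroblast markers was higher, Dcn, which encodes the proteoglycan decorin, at 7.63 and 6.94 in GM-BMM, 5.56 and 5.68 in GM-BMDC, and 6.42 and 6.03 in M-BMM (difference 1.37 ± 0.20). The defining fibroblast genes Col1a1, Col1a2 and Col3a1 had differences of -0.22, -0.12 and -0.06. The mean level of the fibroblast list was 6.08 and 6.12 in GM-BMM, 5.91 and 5.95 in GM-BMDC and 6.01 and 6.04 in M-BMM. The matrix count of 8 higher was 5 without M-BMM replicate 2. Without 1 array limma no longer called, with the highest adjusted p in brackets, Dcn (0.061) and Mmp8 (0.054) without M-BMM replicate 2 and Tgfbi (0.079) without GM-BMM replicate 2 or either M-BMM array.

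Monocyte and neutrophil markers were read beside these genes. Of 15 monocyte markers 5 were higher, with a list median of 1.02 and mean levels of 9.0 and 9.20 in GM-BMM, 8.0 and 8.24 in GM-BMDC and 7.59 and 7.81 in M-BMM. They were Hp, Chil3, Mgst1, Plac8 and Thbs1. Plac8 had 8.95 and 8.77 in GM-BMM, 6.38 and 5.93 in GM-BMDC, and 8.59 and 8.25 in M-BMM (difference 1.57 ± 0.16, adjusted p = 0.00201) and Mgst1, a membrane glutathione transferase, differed by 1.58 ± 0.27. Ccr2, the receptor that draws monocytes to Ccl2, was not among them, at 9.95 and 9.70 in GM-BMM, 10.09 and 11.04 in GM-BMDC, and 7.36 and 6.29 in M-BMM. Of 18 neutrophil markers, Mmp8, Mmp9, Lcn2 and Padi4 were higher and Mpo was lower. Padi4, which citrullinates histones, differed by 1.17 ± 0.13 and Mpo, named after its values were seen, by -0.50 ± 0.10. The mean level of the list was 7.05 and 7.43 in GM-BMM, where replicate 1 was the higher, 6.40 and 6.43 in GM-BMDC and 6.78 and 6.81 in M-BMM. The neutrophil genes Ly6g, S100a8 and S100a9 had differences of 0.98, 1.11 and 0.14 and did not pass, and Cxcr2 was low in all 3 populations. The part of other cells in these results was not tested. Mast cell, eosinophil, T and NK cell and erythroid lists gave 0 calls by the rule in 9, 7, 11 and 6 genes, with 1, 0, 0 and 0 higher and 0, 1, 2 and 1 lower at an unadjusted limma p under 0.05. Neutrophil genes higher in GM-BMM numbered 7 without GM-BMM replicate 2. The mast cell count of 0 higher was 2 without GM-BMM replicate 2. Of the eosinophil genes, the number higher was 1 without GM-BMM replicate 2. Neutrophil genes lower in GM-BMM numbered 0 without either GM-BMM array, GM-BMDC replicate 1 or either M-BMM array. The eosinophil count of 0 lower was 1 without GM-BMM replicate 1. Of the T and NK cell genes, the number lower was 1 without GM-BMM replicate 1 or GM-BMDC replicate 2. Erythroid genes lower in GM-BMM numbered 1 without GM-BMM replicate 1. Leaving out 1 array ended the limma call, with the highest adjusted p so reached in brackets, for Mgst1 (0.100) without either GM-BMM array or either M-BMM array and Mpo (0.14) without either GM-BMM array, GM-BMDC replicate 1 or either M-BMM array.

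Of 29 macrophage markers 4 were higher in GM-BMM by the rule (13.8%, against 3.03% of all genes tested): Cd14, Fcgr1, Msr1 and Trem2. Of the list, 2 genes passed in both pairwise comparisons. The mean level of the list was 10.59 to 10.66 in GM-BMM, 9.63 to 10.14 in GM-BMDC and 10.43 to 10.52 in M-BMM. Msr1, a scavenger receptor, had 11.88 and 12.02 in GM-BMM, 10.47 and 11.12 in GM-BMDC, and 10.95 and 10.59 in M-BMM (difference 1.17 ± 0.19, adjusted p = 0.0145) and Trem2, a lipid receptor, differed by 0.85 ± 0.17 (adjusted p = 0.0318). With Lrp1, a receptor for many ligands (0.47 ± 0.11), Msr1 made 2 of 27 scavenger receptor genes higher. Lysosomal genes had mostly positive differences: 40 of 43 differences were positive and 4 were higher past the rule, with a list median of 0.31. The mean level of the list was 10.54 to 10.59 in GM-BMM, 9.82 to 10.10 in GM-BMDC and 10.36 to 10.39 in M-BMM. Only 1 lysosomal gene was higher in both pairwise comparisons. Ctsk, cathepsin K, had 8.60 and 9.10 in GM-BMM, 6.52 and 7.01 in GM-BMDC, and 6.35 and 6.13 in M-BMM (difference 2.35 ± 0.19, adjusted p = 0.000886), Acp5 differed by 1.36 ± 0.22, Naglu by 0.77 ± 0.15 and Ctss by 0.70 ± 0.13, and Ids, an iduronate sulfatase gene named after its values were seen, was lower (-0.50 ± 0.10). The cathepsin K arrays of GM-BMM were well clear of both others. On the list of PPAR gamma targets and lung macrophage genes, 7 of 24 were higher, with a list median of 0.35. Fabp4, a fatty acid carrier, had 9.63 and 9.55 in GM-BMM, 7.76 and 7.68 in GM-BMDC, and 7.37 and 6.90 in M-BMM (difference 2.16 ± 0.14, adjusted p = 0.000452). The others on this list were Fabp5, Lpl, which encodes lipoprotein lipase, Cebpb, Il1rn, Chil3 and Ctsk, with 0.90 ± 0.10 for Fabp5 and 0.85 ± 0.11 for Lpl. Pparg itself, the lipid sensor on which alveolar macrophages depend, had 9.62 and 7.64 in GM-BMM, 9.67 and 9.89 in GM-BMDC, and 8.27 and 7.95 in M-BMM and did not pass, and its GM-BMM arrays were far apart. Siglecf, a mark of alveolar macrophages, had 7.26 and 6.70 in GM-BMM, 7.84 and 7.81 in GM-BMDC, and 7.06 and 7.23 in M-BMM. Of the lysosome genes, the number lower was 0 without either GM-BMM array, either GM-BMDC array or either M-BMM array. Lysosome genes higher in GM-BMM numbered 1 without either M-BMM array and 2 without GM-BMM replicate 1. The scavenger receptor count of 2 higher was 0 without GM-BMM replicate 2 or either M-BMM array, 1 without GM-BMM replicate 1 and 5 without GM-BMDC replicate 2. Of the macrophage genes, the number higher was 1 without either M-BMM array and 2 without GM-BMM replicate 2. The limma call was lost with 1 array left out, the highest adjusted p in brackets, for Acp5 (0.086) without GM-BMM replicate 2 or either M-BMM array and Ctss (0.14), Msr1 (0.082), Naglu (0.14) and Trem2 (0.14) without either GM-BMM array or either M-BMM array. It was also lost for Lrp1 (0.18) without either GM-BMM array, GM-BMDC replicate 1 or either M-BMM array and Ids (0.19) without either GM-BMM array, either GM-BMDC array or either M-BMM array.

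Genes of glucose uptake and glycolysis were higher in 8 of 22, with a list median of 0.45. Slc2a1, the glucose transporter GLUT1, had 11.27 and 11.13 in GM-BMM, 10.23 and 10.35 in GM-BMDC, and 10.03 and 10.01 in M-BMM (difference 1.04 ± 0.10, adjusted p = 0.00149). Slc16a3, which exports lactate, had 9.50 and 9.71 in GM-BMM, 8.80 and 8.91 in GM-BMDC, and 8.25 and 8.13 in M-BMM (difference 1.08 ± 0.11, adjusted p = 0.00179). The enzymes Pfkl and Hk2 differed by 1.21 ± 0.18 and 0.81 ± 0.15, and Tpi1, Pgk1, Pgam1 and Pkm also passed. These differences were moderate and spread over the pathway from entry of glucose to export of lactate. Hif1a, the oxygen-sensitive factor that drives these genes in hypoxia, had 11.73 and 11.61 in GM-BMM, 10.65 and 10.81 in GM-BMDC, and 10.74 and 10.44 in M-BMM (difference 1.01 ± 0.12, adjusted p = 0.00393). Counted after the values were seen, 9 of 21 hypoxia response genes were higher. Egln3, the oxygen sensor PHD3 and itself a target of the factor, had 9.88 and 9.47 in GM-BMM, 6.17 and 6.05 in GM-BMDC, and 7.19 and 6.95 in M-BMM (difference 3.08 ± 0.14, 8.48-fold). Hilpda, a lipid droplet protein, differed by 1.89 ± 0.24, Ak4 by 1.46 ± 0.12, Bnip3 by 1.12 ± 0.15, Ero1a by 1.08 ± 0.18 and P4ha1 by 0.87 ± 0.12. Other targets did not move with them: Ndrg1 had 8.58 and 9.94 in GM-BMM, 9.89 and 9.38 in GM-BMDC, and 12.53 and 12.55 in M-BMM (difference -1.82), and Adm and Car9 differed by -0.44 and 0.11 without a call. The promoter of Egln3 is shown because it is the largest difference of the group, with the ACGTG core in capitals 229 bases before the start.
Egln3, chr12:54203875-54204124, minus strand: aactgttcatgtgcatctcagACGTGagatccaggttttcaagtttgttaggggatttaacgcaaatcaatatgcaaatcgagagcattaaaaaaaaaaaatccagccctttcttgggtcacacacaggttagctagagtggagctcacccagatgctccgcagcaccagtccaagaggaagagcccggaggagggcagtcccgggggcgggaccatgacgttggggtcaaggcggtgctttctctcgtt
Respiratory chain genes were read beside them: the 34 NADH dehydrogenase subunit genes had a median difference of -0.01, between -0.37 and 0.35. The glycolysis count of 8 higher was 2 without M-BMM replicate 2 and 3 without GM-BMM replicate 2 or M-BMM replicate 1. Calls that limma no longer made without 1 array, with the highest adjusted p in brackets, were those of P4ha1 (0.056) and Pfkl (0.065) without M-BMM replicate 2 and Ero1a (0.090) without either M-BMM array. Lost likewise was the call for Hk2 (0.11) without GM-BMM replicate 2 or either M-BMM array.

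Of 41 measured transcription factors of macrophages and myeloid cells 4 were higher (9.76%, against 3.03% of all genes tested) and 1 was lower. Bhlhe41, which supports alveolar macrophages, had 9.29 and 9.45 in GM-BMM, 6.45 and 6.96 in GM-BMDC, and 8.0 and 7.84 in M-BMM (difference 2.06 ± 0.15, adjusted p = 0.000677), and the populations did not overlap. Mitf, a factor of lysosomal and osteoclast genes, differed by 0.67 ± 0.14 and was named after its values were seen, and Hif1a was the other higher factor. Cebpb, a factor of inflammatory myeloid genes, had 8.69 and 8.92 in GM-BMM, 7.28 and 7.75 in GM-BMDC, and 8.22 and 8.08 in M-BMM (difference 0.97 ± 0.15, adjusted p = 0.0116). Batf3, needed for type 1 dendritic cells, was lower (-0.78 ± 0.16, adjusted p = 0.0318), just below M-BMM. Spi1, the master factor of myeloid cells, had 11.47 and 11.74 in GM-BMM, 11.39 and 11.61 in GM-BMDC, and 11.82 and 11.87 in M-BMM and did not pass. Among other groups, Itga5 was the 1 higher gene of 23 integrins (0.76 ± 0.15), Ier3 the 1 of 24 immediate-early and heat-shock genes (1.24 ± 0.20), and Plxna1, a semaphorin receptor, differed by 1.28 ± 0.12. The integrin and immediate-early shares, 4.35% and 4.17%, were near the 3.03% of all genes tested. Amino acid transporter genes split, with 3 of 18 higher and 2 lower. Slc7a8 and Slc6a8, a creatine carrier, were higher with Slc7a2 (1.66 ± 0.21 and 0.85 ± 0.11). Slc7a5, the large neutral amino acid carrier, was lower, at 7.73 and 8.30 in GM-BMM, 9.57 and 9.17 in GM-BMDC, and 8.89 and 9.32 in M-BMM (difference -1.23 ± 0.21, adjusted p = 0.0157), and Slc1a4, a carrier of small neutral amino acids, differed by -0.72 ± 0.15. Transcription factor genes higher in GM-BMM numbered 2 without either M-BMM array. The integrin count of 1 higher was 0 without GM-BMM replicate 2, GM-BMDC replicate 1 or either M-BMM array. Of the immediate-early or heat-shock genes, the number higher was 4 without GM-BMM replicate 1, 2 without GM-BMDC replicate 2 and 0 without either M-BMM array. Transporter genes higher in GM-BMM numbered 5 without GM-BMDC replicate 1. The transcription factor count of 1 lower was 0 without GM-BMM replicate 2 or either M-BMM array. Of the transporter genes, the number lower was 0 without GM-BMM replicate 1 or M-BMM replicate 2 and 1 without GM-BMDC replicate 1 or M-BMM replicate 1. Without 1 array limma no longer called, with the highest adjusted p in brackets, Slc7a5 (0.083) without GM-BMM replicate 1 or M-BMM replicate 2 and Ier3 (0.078) without either M-BMM array. It was also lost for Cebpb (0.075) without GM-BMM replicate 2 or either M-BMM array and Batf3 (0.16) without either GM-BMM array or either M-BMM array. The same held for Mitf (0.15) and Slc1a4 (0.14) without either GM-BMM array, GM-BMDC replicate 1 or either M-BMM array and Itga5 (0.13) without GM-BMM replicate 2, either GM-BMDC array or either M-BMM array.

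Further genes with large differences lie outside the lists, and those described here were chosen after their values were seen. Kcnn3, a calcium-activated potassium channel gene, had 10.31 and 9.52 in GM-BMM, 6.56 and 6.65 in GM-BMDC, and 6.16 and 5.99 in M-BMM (difference 3.58 ± 0.21, 11.9-fold, adjusted p = 0.000239). Acpp, which encodes prostatic acid phosphatase, had 11.28 and 11.24 in GM-BMM, 9.25 and 9.68 in GM-BMDC, and 6.31 and 6.09 in M-BMM (difference 3.43 ± 0.14, adjusted p = 5.54e-05), and Clmp, an adhesion molecule of tight junctions, had 9.69 and 9.89 in GM-BMM, 6.76 and 6.61 in GM-BMDC, and 6.43 and 6.48 in M-BMM (difference 3.22 ± 0.11, adjusted p = 2.78e-05). GM-BMDC and M-BMM were close to each other in Kcnn3 and Clmp. F7, which encodes coagulation factor VII, had 11.27 and 11.05 in GM-BMM, 9.62 and 10.40 in GM-BMDC, and 6.87 and 6.70 in M-BMM (difference 2.76 ± 0.21), and Pdpn (podoplanin), a surface glycoprotein that activates platelets, had 10.73 and 10.34 in GM-BMM, 9.22 and 9.52 in GM-BMDC, and 7.26 and 6.51 in M-BMM (difference 2.41 ± 0.22). Both were graded, with GM-BMDC above M-BMM. Several genes make small molecules. Acod1, which makes itaconate from an intermediate of the citric acid cycle, had 12.65 and 12.97 in GM-BMM, 10.02 and 9.70 in GM-BMDC, and 11.68 and 11.59 in M-BMM (difference 2.06 ± 0.14, adjusted p = 0.000481). Ch25h, which makes the antiviral sterol 25-hydroxycholesterol, had 8.21 and 7.33 in GM-BMM, 6.57 and 6.27 in GM-BMDC, and 5.26 and 5.46 in M-BMM (difference 1.87 ± 0.23, adjusted p = 0.00453). Dgat2, the last step of triglyceride synthesis, had 8.53 and 8.87 in GM-BMM, 6.39 and 6.42 in GM-BMDC, and 6.22 and 6.28 in M-BMM (difference 2.37 ± 0.12, adjusted p = 0.000125), and Upp1, which cleaves uridine, had 9.91 and 8.59 in GM-BMM, 6.88 and 6.79 in GM-BMDC, and 6.58 and 6.66 in M-BMM (difference 2.52 ± 0.31, adjusted p = 0.00445). In each of these 4 genes the populations did not overlap with GM-BMM, and M-BMM were nearer to GM-BMM than GM-BMDC were in Acod1 and further away in Ch25h. Single arrays moved some differences by over 1.5-fold: Upp1 1.86 without GM-BMM replicate 1 and 3.18 without GM-BMM replicate 2.

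**Figure D3:**
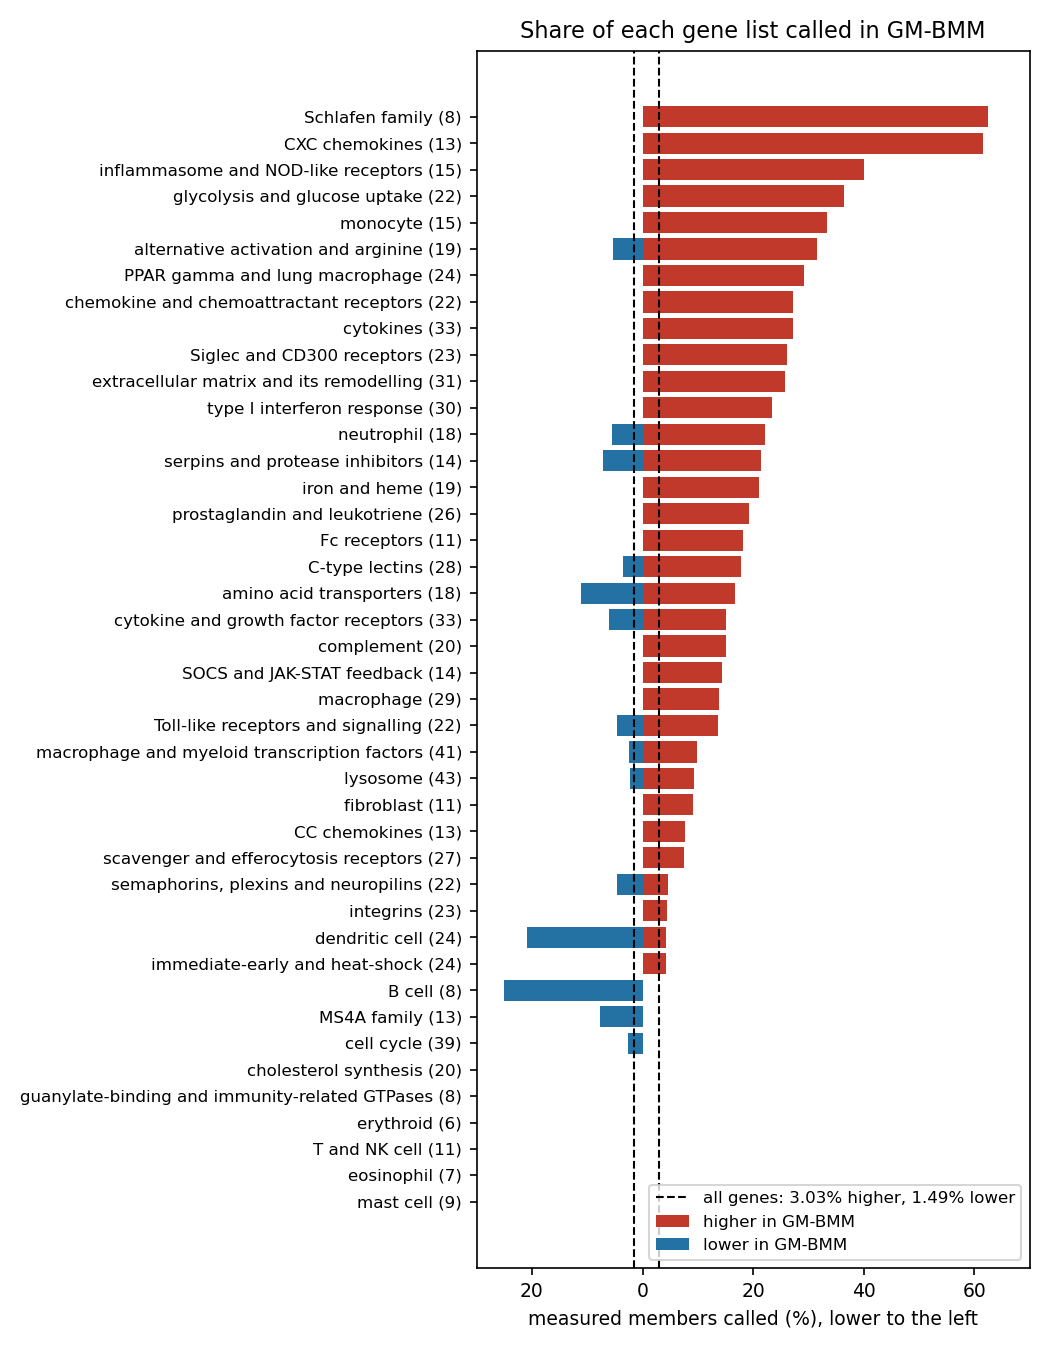
Share of the measured genes of 42 lists (number in brackets) that were higher (red, to the right) or lower (blue, to the left) in GM-BMM, in percent, with dashed lines at the shares over all genes tested, 3.03% higher and 1.49% lower. The Schlafen and CXC chemokine lists have the highest shares of higher genes and the dendritic cell and B cell lists the highest shares of lower genes.

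The lower genes with the largest differences had varied roles. Adgrg6, an adhesion G protein-coupled receptor, had 6.43 and 8.87 in GM-BMM, 10.96 and 10.31 in GM-BMDC, and 10.55 and 10.63 in M-BMM (difference -2.96 ± 0.58, adjusted p = 0.0284), with GM-BMM arrays far apart. Sema7a, a GPI-anchored semaphorin, had 6.37 and 6.71 in GM-BMM, 10.71 and 9.87 in GM-BMDC, and 8.36 and 8.37 in M-BMM (difference -2.79 ± 0.22, adjusted p = 0.000858). Cd83, a surface protein of mature dendritic cells, had 7.57 and 7.14 in GM-BMM, 11.57 and 10.93 in GM-BMDC, and 8.84 and 9.03 in M-BMM (difference -2.73 ± 0.20, adjusted p = 0.000622). In Sema7a and Cd83 GM-BMDC were highest, M-BMM between and GM-BMM lowest, without overlap. Fyn, a Src family kinase, had 6.23 and 6.02 in GM-BMM, 9.35 and 8.89 in GM-BMDC, and 8.34 and 8.21 in M-BMM (difference -2.57 ± 0.15, 5.94-fold lower, adjusted p = 0.000242), and Ust, a uronyl sulfotransferase, had 5.51 and 6.16 in GM-BMM, 7.13 and 6.93 in GM-BMDC, and 9.62 and 9.59 in M-BMM (difference -2.48 ± 0.18, adjusted p = 0.000556). Tmem176a and Tmem176b are neighbouring genes of membrane channels linked to dendritic cell maturation, and both were lower. Tmem176a had 7.51 and 9.12 in GM-BMM, 10.63 and 10.35 in GM-BMDC, and 11.43 and 11.58 in M-BMM (difference -2.68 ± 0.38, adjusted p = 0.00815) and Tmem176b 9.24 and 10.52 in GM-BMM, 11.90 and 11.73 in GM-BMDC, and 12.46 and 12.48 in M-BMM (difference -2.26 ± 0.30, adjusted p = 0.00649). In this pair and in Ust, M-BMM rather than GM-BMDC were highest. Il2ra, the interleukin 2 receptor alpha chain, had 7.99 and 8.55 in GM-BMM, 11.64 and 11.07 in GM-BMDC, and 9.68 and 9.73 in M-BMM (difference -2.26 ± 0.20, adjusted p = 0.00121). Arhgap26 had 8.20 and 8.07 in GM-BMM, 10.03 and 9.99 in GM-BMDC, and 9.74 and 9.68 in M-BMM (difference -1.72 ± 0.10, adjusted p = 0.000211), and Herpud1, a gene of endoplasmic reticulum stress, had 9.20 and 9.30 in GM-BMM, 10.93 and 10.79 in GM-BMDC, and 10.68 and 10.90 in M-BMM (difference -1.57 ± 0.11, adjusted p = 0.000513). In these 2 genes GM-BMDC and M-BMM were nearly level. Csn1s1, a casein gene, had 4.58 and 3.94 in GM-BMM, 5.81 and 5.23 in GM-BMDC, and 7.73 and 7.15 in M-BMM (difference -2.22 ± 0.25), so its GM-BMM mean was low. Among lower genes chosen after their values were seen, Marcks, a membrane-bound substrate of protein kinase C, had 9.37 and 9.96 in GM-BMM, 10.83 and 10.53 in GM-BMDC, and 11.11 and 10.96 in M-BMM (difference -1.19 ± 0.18), and the adhesion molecule gene Icam1 had 9.45 and 9.30 in GM-BMM, 10.64 and 10.10 in GM-BMDC, and 10.37 and 10.46 in M-BMM (difference -1.02 ± 0.16). Leaving out 1 array ended the limma call, with the highest adjusted p so reached in brackets, for Tmem176b (0.053) without M-BMM replicate 2 and Marcks (0.063) and Tmem176a (0.063) without either M-BMM array. Lost likewise was the call for Adgrg6 (0.13) without GM-BMDC replicate 1 or either M-BMM array and Icam1 (0.075) without GM-BMM replicate 2 or either M-BMM array. Over 1.5-fold apart without 1 array were the differences of Adgrg6 -1.74 without GM-BMM replicate 1 and -4.19 without GM-BMM replicate 2, Tmem176a -1.88 without GM-BMM replicate 1 and -3.48 without GM-BMM replicate 2, Tmem176b -1.63 without GM-BMM replicate 1 and -2.90 without GM-BMM replicate 2.

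**Figure D4:**
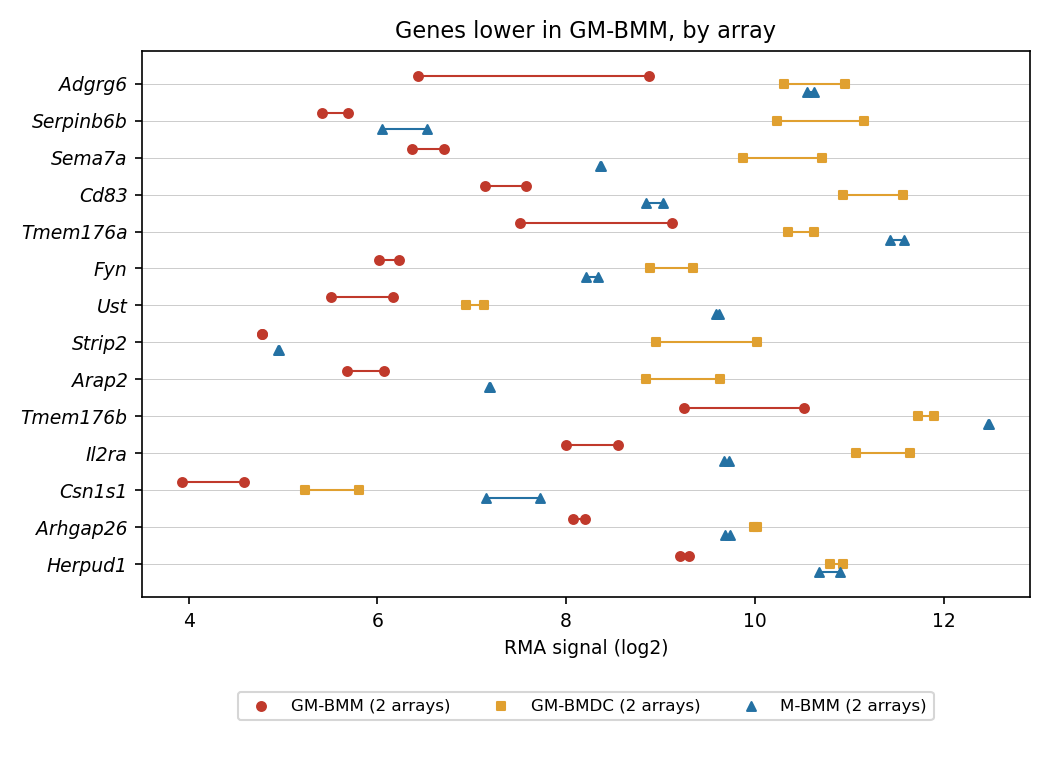
RMA signals (log2, horizontal axis) of 14 lower genes, the 12 with the largest differences and those among the 8 with the largest smaller pairwise difference, with GM-BMM as red circles, GM-BMDC as orange squares and M-BMM as blue triangles, each symbol 1 array and each line joining the 2 arrays of a population. In every gene both GM-BMM arrays lie left of the other 4; M-BMM are close to GM-BMM in Serpinb6b and Strip2 and highest in Ust and Tmem176a.

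Several other lower genes lay further below GM-BMDC than below M-BMM. Serpinb6b, an intracellular protease inhibitor, had 5.69 and 5.42 in GM-BMM, 11.15 and 10.23 in GM-BMDC, and 6.52 and 6.05 in M-BMM (difference -2.93 ± 0.26, adjusted p = 0.00118), and the pairwise test against M-BMM did not pass (difference -0.73 ± 0.30, adjusted p = 0.237). Strip2 had 4.78 and 4.78 in GM-BMM, 10.02 and 8.95 in GM-BMDC, and 4.96 and 4.95 in M-BMM (difference -2.44 ± 0.26, adjusted p = 0.00232), low in GM-BMM and M-BMM alike. Arap2, which regulates small GTPases, had 6.08 and 5.68 in GM-BMM, 9.63 and 8.85 in GM-BMDC, and 7.19 and 7.18 in M-BMM (difference -2.33 ± 0.22, adjusted p = 0.00145). Dpp4 (CD26), a mark of type 1 dendritic cells, had 5.54 and 5.47 in GM-BMM, 9.82 and 9.42 in GM-BMDC, and 5.60 and 5.57 in M-BMM (difference -2.10 ± 0.13, adjusted p = 0.000319), a gap of 0.027 below M-BMM. Stat4, which transmits interleukin 12 signals, had 8.0 and 7.40 in GM-BMM, 11.27 and 10.66 in GM-BMDC, and 8.53 and 8.48 in M-BMM (difference -2.04 ± 0.21), and Spib, a factor of B cells and plasmacytoid dendritic cells, differed by -1.85 ± 0.22, both named after their values were seen. On the dendritic cell list 5 of 24 genes were lower and 1, Clec9a, was higher, with a list median of -0.82. The lower ones were Cd83, Dpp4, Flt3, Batf3 and Bcl11a. In both pairwise comparisons 2 genes of this list were lower and 0 higher. Bcl11a, a factor of early lymphoid and dendritic cells, had 6.34 and 6.18 in GM-BMM, 7.23 and 7.02 in GM-BMDC, and 7.43 and 7.98 in M-BMM (difference -1.16 ± 0.16, adjusted p = 0.00804) and was highest in M-BMM. Ccr7, which guides dendritic cells to lymph nodes, had 7.41 and 7.39 in GM-BMM, 11.94 and 11.82 in GM-BMDC, and 5.94 and 6.53 in M-BMM, so GM-BMM lay between the other populations and the gene was not a member. Of 8 B cell genes 2 were lower, Cd79a, at 3.99 and 4.49 in GM-BMM, 7.15 and 6.23 in GM-BMDC, and 4.73 and 4.49 in M-BMM (difference -1.41 ± 0.26), and Ms4a1, at 4.91 and 4.66 in GM-BMM, 6.87 and 6.14 in GM-BMDC, and 4.98 and 5.34 in M-BMM (difference -1.05 ± 0.21). Neither Cd79a nor Ms4a1 passed in both pairwise comparisons. The mean level of the B cell list was 6.12 and 6.34 in GM-BMM, 6.57 and 7.19 in GM-BMDC and 6.67 and 6.75 in M-BMM. Of 39 cell cycle genes only Ccnd1 (cyclin D1) was lower, at 8.03 and 8.44 in GM-BMM, 8.68 and 9.56 in GM-BMDC, and 9.53 and 9.39 in M-BMM (difference -1.05 ± 0.24, adjusted p = 0.0478). No cholesterol synthesis gene of 20 met the rule, with 1 higher and 5 lower at an unadjusted limma p under 0.05. The B cell count of 2 lower was 0 without GM-BMM replicate 1 or either M-BMM array and 1 without GM-BMM replicate 2. Of the cell cycle genes, the number lower was 0 without either GM-BMM array or either M-BMM array. Cholesterol synthesis genes higher in GM-BMM numbered 1 without GM-BMDC replicate 2. The limma call was lost with 1 array left out, the highest adjusted p in brackets, for Cd79a (0.12) without GM-BMM replicate 1 or either M-BMM array and Ccnd1 (0.23) and Ms4a1 (0.15) without either GM-BMM array or either M-BMM array.

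Ribosomal protein genes were the largest group counted among the lower genes, and their differences were small and even. Counted after the values were seen, 23 of 59 measured genes were lower (39.0%, against 1.49% of all genes), 58 of 59 had a negative difference and the median was -0.40. Rpsa, a protein of the small subunit, had 10.43 and 10.31 in GM-BMM, 11.54 and 11.34 in GM-BMDC, and 11.34 and 11.19 in M-BMM (difference -0.98 ± 0.11, adjusted p = 0.00275), and Rps7 had 10.81 and 10.62 in GM-BMM, 11.49 and 11.60 in GM-BMDC, and 11.55 and 11.50 in M-BMM (difference -0.82 ± 0.10, adjusted p = 0.00481). Rpl36 and Rpl27a of the large subunit differed by -0.78 ± 0.10 and -0.75 ± 0.12. Ribosomal protein genes have many processed copies, so their probes may be shared. Of the genes of ribosome assembly, also counted after the values were seen, 10 of 44 were lower (22.7%) and 41 had a negative difference, with a median of -0.24. Gtpbp4 and Nmd3, which act on the large subunit, differed by -0.83 ± 0.13 and -0.73 ± 0.11, Npm1 (nucleophosmin) by -0.58 ± 0.12 and Fbl (fibrillarin) by -0.56 ± 0.10. Gas5, a noncoding host gene of small nucleolar RNAs, had 8.07 and 8.19 in GM-BMM, 8.70 and 8.73 in GM-BMDC, and 9.16 and 9.16 in M-BMM (difference -0.81 ± 0.09, adjusted p = 0.00347). With arrays centred on their medians the ribosomal protein count was 23 and the median -0.40, and with quantile normalization 32 and -0.44. Of the ribosomal protein genes, the number lower was 5 without M-BMM replicate 2, 7 without M-BMM replicate 1 and 8 without GM-BMM replicate 2. Ribosome assembly genes lower in GM-BMM numbered 1 without either M-BMM array, 2 without GM-BMM replicate 1 and 4 without GM-BMM replicate 2 or GM-BMDC replicate 2. Calls that limma no longer made without 1 array, with the highest adjusted p in brackets, were those of Fbl (0.12), Gtpbp4 (0.074) and Nmd3 (0.055) without GM-BMM replicate 1 or either M-BMM array and Rpl27a (0.071) without GM-BMM replicate 2 or either M-BMM array. The same held for Npm1 (0.17) without GM-BMM replicate 2, GM-BMDC replicate 2 or either M-BMM array.

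**Figure D5:**
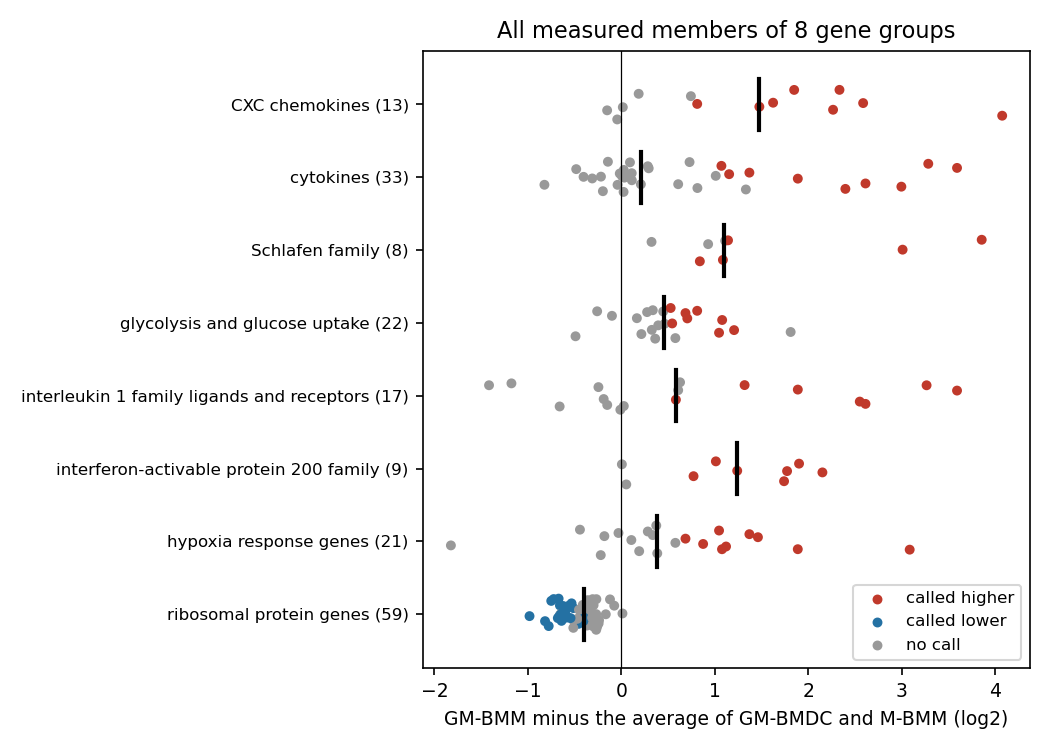
Difference (GM-BMM minus the average of GM-BMDC and M-BMM, log2, horizontal axis) of every measured member of 8 gene groups, each point 1 gene, with genes called higher in red, genes called lower in blue, other genes in grey and the group median as a black bar. CXC chemokines and Schlafen genes spread to the right, and the 59 ribosomal protein genes cluster left of 0 around a median of -0.40.

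Of 300 genes on the array with microRNA names, 1 was higher and 4 were lower in GM-BMM, shares of 0.333% and 1.33% that do not exceed those of all genes. The 300 include the host genes Mir100hg, Mir17hg, Mir670hg and Mir99ahg, none of which was called. For the others the probe sets read the precursor's place in the genome and not the mature microRNA, which silences messenger RNAs through its seed. Mature sequences of 4 of these loci are given from RefSeq (GRCm38.p6), with the seed, bases 2 to 8, in capitals.
let-7e-5p, chr17:17830366-17830387, plus strand: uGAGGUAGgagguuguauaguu
let-7c-5p, chr16:77599672-77599693, plus strand: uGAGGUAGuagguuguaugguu
miR-99a-5p, chr16:77598940-77598961, plus strand: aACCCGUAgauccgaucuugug
miR-34a-5p, chr4:150068473-150068494, plus strand: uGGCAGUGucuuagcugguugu
The let-7e and let-7c microRNAs share the seed GAGGUAG, and both loci met the rule, 1 higher and 1 lower. Mirlet7e had 6.89 and 6.64 in GM-BMM, 5.86 and 5.85 in GM-BMDC, and 6.48 and 6.44 in M-BMM (difference 0.61 ± 0.11, adjusted p = 0.0185), and Mirlet7c-1 had 3.34 and 3.48 in GM-BMM, 3.60 and 3.54 in GM-BMDC, and 4.96 and 4.85 in M-BMM (difference -0.83 ± 0.10, adjusted p = 0.00406), low in all 3 populations. Mir99a, which lies beside Mirlet7c-1 on chromosome 16, was lower too, at 4.82 and 4.74 in GM-BMM, 4.99 and 4.98 in GM-BMDC, and 6.54 and 6.69 in M-BMM (difference -1.02 ± 0.10, adjusted p = 0.00161). In both, GM-BMDC were just above GM-BMM and M-BMM far above, and the GM-BMM and GM-BMDC means were low. Mir34a had 5.18 and 5.20 in GM-BMM, 5.74 and 5.65 in GM-BMDC, and 6.12 and 5.80 in M-BMM (difference -0.64 ± 0.12) and Mir375 6.61 and 6.76 in GM-BMM, 7.31 and 7.02 in GM-BMDC, and 7.40 and 7.40 in M-BMM (difference -0.59 ± 0.12). All were named after their values were seen. Without 1 array limma no longer called, with the highest adjusted p in brackets, Mirlet7e (0.100) without GM-BMM replicate 1 or either M-BMM array and Mir34a (0.097) without either GM-BMM array, GM-BMDC replicate 1 or M-BMM replicate 1. No call was left for Mir375 (0.14) without either GM-BMM array or either M-BMM array.

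At the edge of the rule, Lrp8 was the higher gene with the smallest gap, at 8.31 and 7.73 in GM-BMM, 7.73 and 7.60 in GM-BMDC, and 6.75 and 6.89 in M-BMM (difference 0.78 ± 0.17), so 0.00013 log2 units parted the nearest arrays. Cd79a, above, was the lower gene with the smallest gap, 2.8e-05. Just outside lay Fuca1, at 10.22 and 10.20 in GM-BMM, 9.87 and 10.20 in GM-BMDC, and 9.28 and 9.18 in M-BMM (difference 0.58), and Cmah, at 5.57 and 5.22 in GM-BMM, 5.73 and 5.56 in GM-BMDC, and 6.67 and 6.47 in M-BMM (difference -0.72), which passed the limma threshold but whose arrays overlapped by less than any other such gene. Of the 605 higher genes, 2 were low in all 3 populations and 7 were low in GM-BMDC and M-BMM but not in GM-BMM. Of the 297 lower genes, 10 were low in all 3 populations and 7 were low in GM-BMM but not in both others.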

How the data were processed

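Total RNA of 6 sorted samples was measured on Affymetrix mouse arrays, 300 ng for each sample. The authors deposited log2 values, which were made with RMA in Affymetrix Expression Console 1.1, per the submitters' processing notes. The array medians lay between 6.18 and 6.28, and nothing was normalized again. Of 35556 probe sets, 21789 name 1 gene, 1621 several and 12146 none in GEO's platform annotation. Each of 19938 genes was read from its single-gene probe set with the highest mean, a choice among several for 999 genes.

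All arrays were fitted in limma 3.58.1 (R 4.3.3) with a term for each population and empirical Bayes moderation (residual df 3, prior df 4.34), and p-values were adjusted by Benjamini-Hochberg over all genes tested. Called genes have an adjusted p under 0.05 and arrays that do not overlap, so the members were chosen on this comparison and their differences are a description. The members and gene lists were chosen with earlier results of these data known. Since the labels name no animals or cultures, p-values rest on the spread between samples, which may be technical, and 2 arrays in each population limit the precision. Genes named in the text are, in each direction, the 12 with the largest difference and the 8 with the largest smaller pairwise difference, leaving out predicted and clone names, up to 4 called genes of each list, the gate and label-check genes and those nearest the threshold; genes named outside this rule were chosen after their values were seen. In data simulated from these arrays with 200 changed genes of 19938, the calls found 0% of genes changed 1.5-fold, 89% of those changed 2-fold and 99.5% of those changed 4-fold, with 0, 7 and 13 false calls. The simulation held GM-BMDC and M-BMM equal, whereas 16.7% of genes tested differed between them past the limma threshold. Genes called here had absolute differences down to 0.41 (higher) and 0.40 (lower), so the simulated shares need not hold for these data. Promoters and microRNAs were matched by symbol in RefSeq tables. Figures were drawn with matplotlib 3.10.9, and tables were handled with pandas 2.3.3, NumPy 2.4.6 and Python 3.11.15. The alternatives tried were leaving out arrays, a replicate block, a Y-linked covariate, other variance models, filters, scalings, probe set choices and fold thresholds. Mature microRNAs and proteins were not analysed here.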

Additional observations from a re-analysis of the deposited data

How the results depend on the processing

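The count of 605 higher and 297 lower genes, and that of 276 and 75 in both pairwise comparisons, were recomputed under 21 alternatives. No named gene with a call changed direction. Leaving out arrays could not reverse a called gene, since both GM-BMM arrays lay beyond the other 4. Changes of variance model or threshold leave the difference itself as it was. Leaving out 1 array gave 228 to 699 higher and 74 to 334 lower genes, and 90 to 315 higher and 11 to 66 lower in both comparisons; the lowest counts came without an M-BMM array, with 272 and 102 (replicate 1) or 228 and 74 (replicate 2), and without GM-BMM replicate 2 there were 190 lower genes. Without both GM-CSF arrays numbered 1 the counts were 769 and 438, and 386 and 127 in both comparisons. Without both numbered 2 they were 947 and 536, and 471 and 128. With GM-BMDC and M-BMM as 1 group of 4 they were 65 and 9. Without moderation 0 higher and 0 lower genes passed in limma after adjustment on either count, against 1136 and 969 non-overlapping genes at an unadjusted p under 0.05, and 551 and 381 in both comparisons. Testing all probe sets gave 290 and 100 genes, and 134 and 22 in both comparisons. Requiring 2-fold gave 266 and 83, and 142 and 20; a test against a log2 difference of 1 gave 52 and 9, and 32 and 1. Correlations of replicate deviations were 0.024 for GM-BMM with GM-BMDC, 0.0263 for GM-BMM with M-BMM and -0.1319 for GM-BMDC with M-BMM. They cannot show whether replicate numbers pair the samples, since each population gives only 1 difference between its arrays. Eif2s3y, Uty and Kdm5d were lowest on both GM-CSF arrays numbered 1. A fit with the replicate number as a block gave 567 and 251 genes, and 268 and 65 in both comparisons. The Y-linked covariate, the trended and robust variance, the filter above the median signal, both scalings and both other probe set choices kept all 4 counts within 1.5 times. The genes behind similar counts were not all the same. With the Y-linked covariate 74 genes were lower in both comparisons, and 49 of them were among the 75. Of 118 named genes called, 47 lost the call without M-BMM replicate 2, 35 without M-BMM replicate 1, 23 and 22 without GM-BMM replicate 1 and 2, 8 and 2 without GM-BMDC replicate 1 and 2, 95 with 1 group of 4 and 118 without moderation. With 2 arrays in each population, 0% of genes changed 1.5-fold and 89% of those changed 2-fold were called in simulated data. That simulation held GM-BMDC and M-BMM equal, so its shares need not hold here. The cause of the changes between alternatives was not tested.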

Other observations

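Glutathione genes were counted after the values were seen, as a group outside the lists. Glutathione is the main small antioxidant of the cell, and of 39 measured genes of its synthesis, recycling and transfer 10 were higher in GM-BMM (25.6%, against 3.03% of all genes tested), with a median difference of 0.19 over the group. Gsr, which recycles oxidized glutathione, had 10.72 and 10.50 in GM-BMM, 9.08 and 9.23 in GM-BMDC, and 10.30 and 10.16 in M-BMM (difference 0.92 ± 0.11, adjusted p = 0.00416 in limma). Mgst2, a membrane transferase, had 9.06 and 8.88 in GM-BMM, 6.73 and 6.10 in GM-BMDC, and 6.29 and 5.99 in M-BMM (difference 2.69 ± 0.19, adjusted p = 0.000513). Mgst2 passed in both pairwise comparisons, whereas Gsr did not pass against M-BMM (difference 0.38 ± 0.13, adjusted p = 0.152 in limma). Nor did Gclm and Gsta3, described next, pass against M-BMM (adjusted p = 0.151 and 0.0631). Gclm, which sets the rate of glutathione synthesis with its partner Gclc, differed by 0.70 ± 0.13, Gsta3 by 1.33 ± 0.11 and Gstm1 by 1.24 ± 0.17. Gstm genes are near copies of each other, and their probes may be shared. Of the glutathione genes, the number higher was 4 without M-BMM replicate 2, 5 without M-BMM replicate 1 and 6 without GM-BMM replicate 1. The limma call was lost with 1 array left out, the highest adjusted p in brackets, for Gstm1 (0.052) without M-BMM replicate 2 and Gclm (0.14) without GM-BMM replicate 1, GM-BMDC replicate 1 or either M-BMM array.

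Genes of the response to amino acid shortage, also counted after the values were seen, had 5 of 25 lower in GM-BMM (20.0%, against 1.49% of all genes tested), with a median difference of -0.05. Besides the carrier genes Slc7a5 and Slc1a4 these were Psat1 and Shmt2, which make serine and glycine, and Sesn2, a stress-induced inhibitor of growth signalling. Psat1 had 7.62 and 7.38 in GM-BMM, 8.10 and 8.31 in GM-BMDC, and 8.12 and 8.35 in M-BMM (difference -0.72 ± 0.13, adjusted p = 0.0198 in limma). Shmt2 differed by -0.55 ± 0.10 and Sesn2 by -0.77 ± 0.13. Other members did not follow. Of the 25 differences 15 were negative, and Atf4, Ddit3, Asns and Trib3 differed by 0.04, 0.03, 0.02 and 0.28 without a call. Slc7a11 differed by 1.61, also without a call. The amino acid response count of 5 lower was 0 without M-BMM replicate 2, 1 without GM-BMM replicate 1 or M-BMM replicate 1, 2 without GM-BMM replicate 2 and 3 without GM-BMDC replicate 1. Calls that limma no longer made without 1 array, with the highest adjusted p in brackets, were those of Sesn2 (0.085) without GM-BMM replicate 1 or either M-BMM array and Psat1 (0.11) without GM-BMM replicate 2 or either M-BMM array. Lost likewise was the call for Shmt2 (0.11) without either GM-BMM array, GM-BMDC replicate 1 or either M-BMM array.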
